A study of Arabidopsis thaliana with 36 samples.

Results

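The data described here are the difference between hypocotyl and cotyledon in how seedlings of Arabidopsis thaliana responded to 180 min of shade-like light. The values come from 8 of the 36 RNA-seq libraries of the series, 2 for each of 4 groups: cotyledon in high R/FR, cotyledon in low R/FR, hypocotyl in high R/FR and hypocotyl in low R/FR. R/FR is the ratio of red to far-red light, which is high in open daylight and low under leaves. All seedlings were wild-type Col-0, labelled as 5 days old, and carried no transgene or mutation. The light either stayed at high R/FR or was changed to low R/FR for the same time, after which seedlings were fixed in cold acetone and dissected. Each library held whole cotyledons or whole hypocotyls pooled from 50 seedlings, so cell types within an organ were not separated. The organ difference of a gene was its log2 fold change (low over high R/FR) in hypocotyl minus its log2 fold change in cotyledon. A positive value means a more positive response in hypocotyl.

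A low R/FR converts phytochrome B to its inactive form, which releases the PIF transcription factors. PIFs switch on auxin synthesis genes, chiefly in cotyledons and leaves, and auxin moves to the hypocotyl, which elongates. Auxin, brassinosteroid and gibberellin act together there on genes for wall loosening, while cotyledon expansion is held back.

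The 8 libraries held between 25061223 and 34013305 counts in genes. Of 33602 genes in the count table, 20126 passed the filter on low counts and were tested. The libraries within a group differed by more than sampling noise, and the labels do not say that they came from separate sowings. The p-values therefore measure the spread between samples of a group. This spread was estimated over all 36 libraries of the series, not from the 8 libraries alone. Levels are given as CPM, counts divided by library size after TMM scaling, and a call is an adjusted p under 0.05. The summed level of 4 mesophyll markers (RBCS1A, LHB1B1, CAB1, GLDP1) lay between 73638 and 85895 CPM in the cotyledon libraries. In the hypocotyl libraries this sum was 19023 and 21341 CPM in high R/FR and 11998 and 12306 CPM in low R/FR. In whole organs, fewer cells of a type and less RNA per cell cannot be told apart, and the part of this shift in the results below was not tested. The shoot-apex markers CLV3 and WUS were at or near 0 in all 8 libraries, while STM was at 0 in the cotyledon libraries and between 0.924 and 1.6 CPM in the hypocotyl libraries. The root-hair marker COBL9 was near 0, and SHR and SCR of the root list stood between 6.45 and 59.9 CPM. KNAT1, a gene also active in hypocotyls, made up nearly all of the shoot-apex sum in hypocotyls.

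More genes were called in hypocotyl than in cotyledon at this time. In hypocotyl 6273 genes (31.2% of those tested) rose and 6568 (32.6%) fell in low R/FR, 63.8% in all. In cotyledon 1615 (8.02%) rose and 2314 (11.5%) fell, 19.5% in all. Without cotyledon high R/FR replicate 1 or 2 the number that rose in cotyledon was 1035 or 1072, and without cotyledon high R/FR replicate 2 or low R/FR replicate 1 the number that fell was 1515 or 1499. The organ difference was called for 9351 genes, 46.5% of those tested, with 4768 (23.7%) higher and 4583 (22.8%) lower in hypocotyl. Of these 9351 genes, 6596 (70.5%) were called in hypocotyl and not in cotyledon, and 439 (4.69%) in cotyledon and not in hypocotyl. A further 499 rose in both organs, 833 fell in both, and 231 were called in neither organ alone. The share of calls in the higher direction, 51.0%, was 40.0% without the filter on low counts and between 39.8% and 40.1% when any hypocotyl library was left out.

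The remaining 753 genes, 3.74% of those tested, moved in opposite directions in the organs. They were chosen by these 180 min values, so their changes at 180 min are given as a description and are not tested again. A total of 395 genes (1.96%) rose in hypocotyl and fell in cotyledon, and 358 (1.78%) fell in hypocotyl and rose in cotyledon. Among genes called in both organs, 2379 moved the same way. The median log2 change of the 395 genes was 0.75 in hypocotyl and -0.52 in cotyledon, and that of the 358 genes was -0.81 and 0.57. A change of at least 1.5-fold in each organ was reached by 140 of the 395 and 127 of the 358, and at least 2-fold by 37 and 43. The counts ranged from 244 to 428 and from 236 to 567 across 16 other fits, and all 753 genes kept both signs in each of those 16. The 395 became 263, 256, 244, 251 and 260 without cotyledon high R/FR replicates 1 and 2, cotyledon low R/FR replicate 1 and hypocotyl high R/FR and low R/FR replicates 3, in that order. The 358 became 236 and 238 without replicate 1 of cotyledon high R/FR and of cotyledon low R/FR. Of the opposite genes 52.5% rose in hypocotyl, a share that was 40.3% with TMM within each organ, 38.3% without the filter and 36.4% to 37.6% without any 1 hypocotyl library. Just inside the threshold, IQD14 had log2 changes of 0.20 in cotyledon and -0.88 in hypocotyl with a largest adjusted p of 0.0499, and just outside, AT2G46900 had 0.24 and -0.50 with 0.0502.

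**Figure D1:**
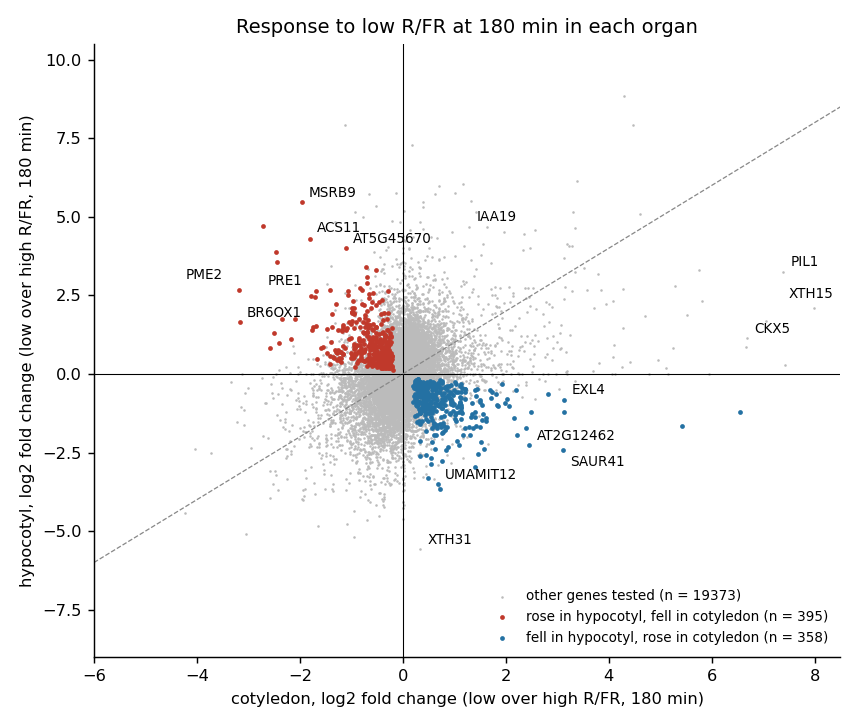
Each point is a gene tested at 180 min, with its log2 fold change (low over high R/FR) in cotyledon on the x axis and in hypocotyl on the y axis. Genes called with opposite signs are coloured (395 red, 358 blue), the dashed line marks equal responses, and 2 genes lie outside the axes; MSRB9 and BR6OX1 sit at the upper left, SAUR41 and UMAMIT12 at the lower right.

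The 10 leading genes that rose in hypocotyl and fell in cotyledon included 2 for hormone synthesis, ACS11 and BR6OX1, and the growth regulator PRE1. ACS11 (AT4G08040; chr4:4887112-4888939, plus strand, in the deposited TAIR10 coordinates) encodes an ACC synthase, the enzyme class that makes the ethylene precursor. Its level was 7.49 and 10.9 CPM in cotyledons in high R/FR, 2.0 and 3.23 CPM in cotyledons in low R/FR, 0.490 and 0.581 CPM in hypocotyls in high R/FR, and 11.2 and 12 CPM in hypocotyls in low R/FR. The leading genes were chosen so that the libraries of the 2 lights did not overlap in either organ. For ACS11 the order of the organs switched. The organ difference was 6.08 ± 0.35 (log2, SE). BR6OX1 (AT5G38970; chr5:15594674-15597885, minus strand) encodes a late enzyme of brassinosteroid synthesis. It stood at 6.52 and 7.68 CPM in cotyledons in high R/FR and at 0.874 and 0.575 CPM in low R/FR, while hypocotyls went from 8.28 and 6.68 CPM to 22.7 and 24.6 CPM. The organs overlapped in high R/FR and stood apart in low R/FR, with an organ difference of 4.82 ± 0.35. PRE1 (AT5G39860; chr5:15957417-15958455, plus strand), a small helix-loop-helix protein that promotes cell elongation, had 25.4 and 27.5 CPM in cotyledons in high R/FR and 8.87 and 6.37 CPM in low R/FR. In hypocotyls PRE1 was at 1.44 and 1.39 CPM in high R/FR and at 6.78 and 9.66 CPM in low R/FR, so that the levels of the organs overlapped in low R/FR; the organ difference was 4.26 ± 0.33.

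Of the 20 leading genes moving in opposite directions, the largest organ difference was that of MSRB9 (AT4G21850; chr4:11591116-11592238, minus strand), a methionine sulfoxide reductase, which repairs oxidised methionine. MSRB9 was at 3.66 and 5.86 CPM in cotyledons in high R/FR, 1.42 and 0.929 CPM in cotyledons in low R/FR, 0.708 and 0.774 CPM in hypocotyls in high R/FR and 36.6 and 34.9 CPM in hypocotyls in low R/FR. Only the hypocotyl libraries in low R/FR were high, and the organ difference was 7.43 ± 0.46. AT1G06360, of the fatty acid desaturase family, fell in cotyledons from 12.7 and 11.6 CPM to 1.91 and 2.39 CPM and rose in hypocotyls from 0.763 and 0.516 CPM to 10.3 and 10.4 CPM. The organs had traded places, with a difference of 6.33 ± 0.25. PME2, a pectin methylesterase and so an enzyme of the cell wall, went from 6.43 and 6.31 CPM to 0.624 and 0.664 CPM in cotyledons and from 0.872 and 0.516 CPM to 5.66 and 4.03 CPM in hypocotyls. Its organ difference was 5.84 ± 0.41. AT5G45670, a GDSL-type lipase, was at 75.6 and 65.3 CPM in cotyledons in high R/FR and 27.9 and 37.4 CPM in low R/FR, against 31.6 and 25.5 CPM and then 487 and 434 CPM in hypocotyls. AT5G61660, a glycine-rich protein, differed between the organs by 4.12 ± 0.24. AT3G07000 and AT3G06990, neighbours on chromosome 3 that both encode cysteine- and histidine-rich C1 domain proteins, differed by 4.32 ± 0.59 and 4.16 ± 0.43. The first had only 4 counts in both cotyledon libraries in low R/FR together. Reads that fit both of these similar genes may be missing from their counts.

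**Figure D2:**
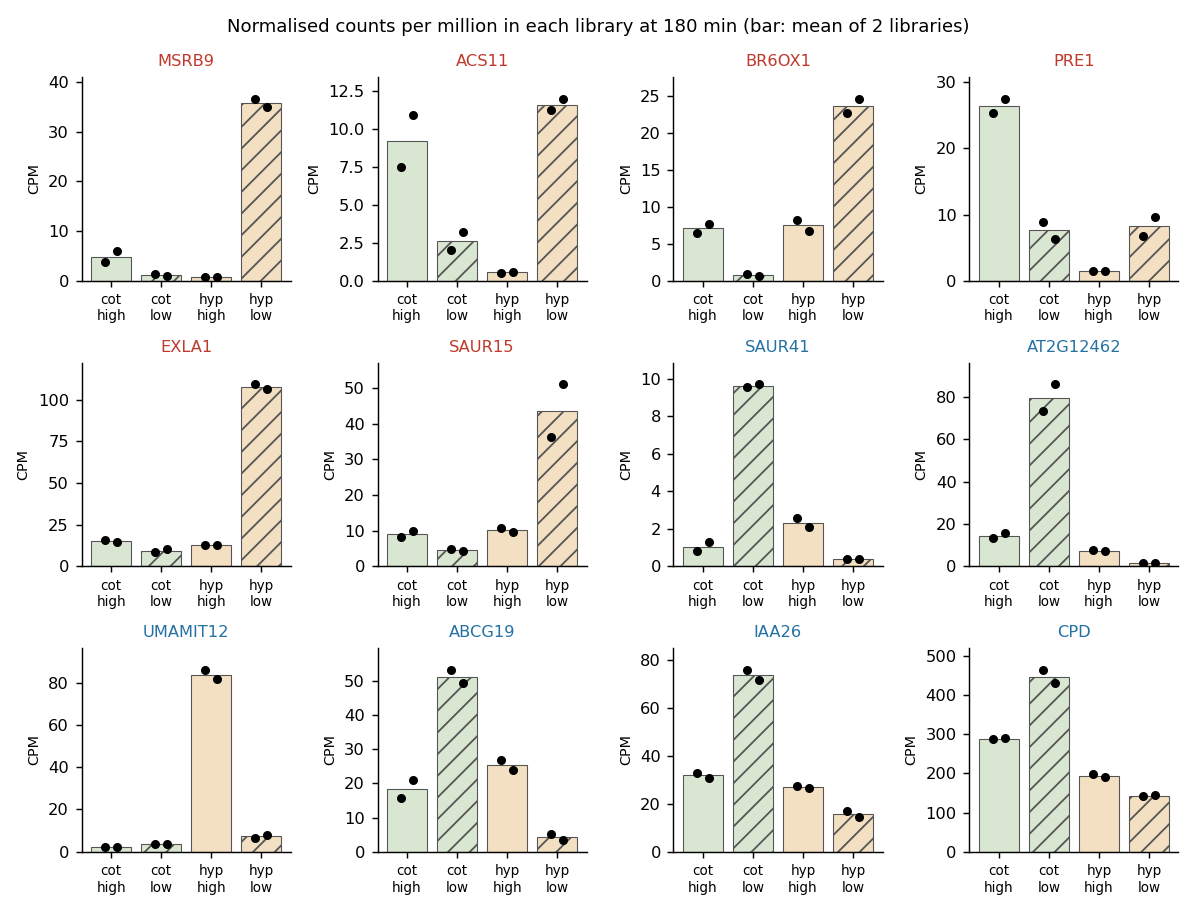
CPM in each of the 8 libraries at 180 min for 12 genes that moved in opposite directions; points are libraries, bars are means of 2, and hatched bars are low R/FR. Red titles mark genes that rose in hypocotyl and fell in cotyledon (MSRB9, ACS11, BR6OX1, PRE1, EXLA1, SAUR15), blue titles the reverse (SAUR41, AT2G12462, UMAMIT12, ABCG19, IAA26, CPD).

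Genes that fell in hypocotyl and rose in cotyledon were led by SAUR41 (AT1G16510; chr1:5644572-5645443, minus strand), of the auxin-responsive SAUR family. SAUR41 was at 0.793 and 1.29 CPM in cotyledons in high R/FR, 9.57 and 9.69 CPM in cotyledons in low R/FR, 2.56 and 2.07 CPM in hypocotyls in high R/FR and 0.394 and 0.358 CPM in hypocotyls in low R/FR. The 2 cotyledon libraries in low R/FR stood above all others, and the organ difference was -5.53 ± 0.37. AT2G12462, whose best protein match in the deposited annotation is a SAM domain protein, rose in cotyledons from 13.1 and 15.7 CPM to 73.4 and 85.9 CPM and fell in hypocotyls from 7.52 and 7.03 CPM to 1.46 CPM in both libraries. UMAMIT12 (AT2G37460; chr2:15726448-15729098, minus strand), a transporter of the nodulin MtN21/EamA-like family, moved mainly in hypocotyl. It fell there from 85.9 and 81.7 CPM to 6.73 and 7.87 CPM, and rose in cotyledons from 2.11 and 2.43 CPM to 3.79 and 3.58 CPM. The hypocotyl stayed above the cotyledon in both lights. ABCG19, an ABC transporter, went from 15.8 and 21.1 CPM to 53.2 and 49.3 CPM in cotyledons and from 26.9 and 23.8 CPM to 5.15 and 3.4 CPM in hypocotyls, an organ difference of -4.01 ± 0.23. EXL4, an EXORDIUM-like gene, rose in cotyledons from 4.36 and 3.35 CPM to 33.4 and 35 CPM and fell in hypocotyls from 23.5 and 26.3 CPM to 17 and 11 CPM, so most of its difference of -3.96 ± 0.37 lay in cotyledon. AT4G16750, which encodes a DNA-binding protein of the Integrase-type superfamily, differed by -4.15 ± 0.33. The last 4 of the 10 leading genes, AT3G62550, AT4G13540, AT5G41460 and AT1G52000, differed by -4.39 ± 0.26, -4.38 ± 0.32, -4.11 ± 0.29 and -3.81 ± 0.24. AT3G62550 and AT1G52000 changed by -3.67 and -3.32 in hypocotyl and by 0.72 and 0.48 in cotyledon.

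The order of the organs in each light is a description of the same 180 min values that chose the genes, and the choice fixes the direction in which it can switch. Of the 395 genes that rose in hypocotyl, the mean level was higher in hypocotyl than in cotyledon for 131 in high R/FR and for 335 in low R/FR. Of the 358 genes of the other direction, it was higher in hypocotyl for 227 in high R/FR and for 50 in low R/FR. The order switched for 204 and 177 genes.

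Promoter letters were read for the 250 bases before each gene's start, from RefSeq's TAIR10.1 genome and annotation. Motif positions count from these starts, which can differ from the deposited gene coordinates given above. The motifs were the G-box CACGTG and its variant CACATG, which PIFs can bind, the auxin response element TGTCTC, and the evening element AAAATATCT, each on either strand and with overlaps counted for each motif. Over 19725 promoters of genes tested, 7.26% held CACGTG, 11% CACATG, 10.6% TGTCTC and 2.46% AAAATATCT. Of 394 promoters of genes that rose in hypocotyl and fell in cotyledon, 7.61% held CACGTG, 15.5% CACATG, 12.4% TGTCTC and 1.52% AAAATATCT. Of 357 promoters of the other direction, the shares were 9.24%, 11.2%, 10.6% and 3.36%. These shares were not tested against each other. The promoters of 6 genes that moved in opposite directions are shown, from different hormone or family groups, because each holds at least 1 match; they were picked after the matches were seen, and capitals mark the matches. BR6OX1 has CACATG starting 171 bases and TGTCTC 37 bases upstream, SAUR15 has CACATG at 225 and 106 and TGTCTC at 92, EXPA10 has CACATG at 131 and, overlapping on the other strand, at 129, with TGTCTC at 119, AIF1 has AAAATATCT at 140, 102 and 71, JAZ3 has CACGTG at 140 and 82, and CHIL, of the other direction, has CACGTG at 67.
BR6OX1, chr5:15598090-15598339, minus strand: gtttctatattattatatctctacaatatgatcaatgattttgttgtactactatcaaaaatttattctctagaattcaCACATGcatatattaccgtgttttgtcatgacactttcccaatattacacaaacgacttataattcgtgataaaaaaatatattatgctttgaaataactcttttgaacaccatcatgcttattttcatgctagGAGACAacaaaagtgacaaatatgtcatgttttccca
SAUR15, chr4:18125807-18126056, plus strand: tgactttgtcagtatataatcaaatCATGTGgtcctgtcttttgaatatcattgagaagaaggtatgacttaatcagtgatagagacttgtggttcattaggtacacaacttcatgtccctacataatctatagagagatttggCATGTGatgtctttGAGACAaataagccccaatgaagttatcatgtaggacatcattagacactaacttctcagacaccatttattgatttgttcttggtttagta
EXPA10, chr1:9259182-9259431, plus strand: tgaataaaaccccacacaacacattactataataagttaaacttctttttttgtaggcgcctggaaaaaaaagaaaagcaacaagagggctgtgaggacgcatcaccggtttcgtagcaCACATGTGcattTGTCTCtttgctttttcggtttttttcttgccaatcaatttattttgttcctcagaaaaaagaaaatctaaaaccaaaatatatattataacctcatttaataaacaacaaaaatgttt
AIF1, chr3:1726901-1727150, plus strand: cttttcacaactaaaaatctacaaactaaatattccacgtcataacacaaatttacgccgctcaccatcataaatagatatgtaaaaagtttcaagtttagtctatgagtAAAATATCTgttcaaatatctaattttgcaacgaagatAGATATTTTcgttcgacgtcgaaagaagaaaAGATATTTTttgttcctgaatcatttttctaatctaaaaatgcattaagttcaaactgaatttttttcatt
JAZ3, chr3:6119457-6119706, plus strand: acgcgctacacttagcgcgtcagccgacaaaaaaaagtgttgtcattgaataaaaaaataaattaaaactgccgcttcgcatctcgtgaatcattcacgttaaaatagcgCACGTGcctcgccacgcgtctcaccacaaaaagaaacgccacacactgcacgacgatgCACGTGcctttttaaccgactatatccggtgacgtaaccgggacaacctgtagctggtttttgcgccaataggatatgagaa
CHIL, chr5:1563036-1563285, plus strand: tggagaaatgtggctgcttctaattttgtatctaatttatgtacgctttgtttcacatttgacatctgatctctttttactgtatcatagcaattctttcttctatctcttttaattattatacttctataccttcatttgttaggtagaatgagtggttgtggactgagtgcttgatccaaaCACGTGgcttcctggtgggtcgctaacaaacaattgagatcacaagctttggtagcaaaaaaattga

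Libraries of the other times, whose means had no part in choosing these genes, were compared next. At 15 min the organ difference was called for 0 of the 753 genes by edgeR's test, with 30 of them at an unadjusted p under 0.05, and for 3 of all genes (0.0149%), which had 747 at that level. At 45 min it was called for 0.696% of all genes, 0.293% higher and 0.402% lower; of the 395, 10 were called higher and 2 lower. Of the 358, 14 were called lower and 1 higher at 45 min. At 90 min the organ difference was called for 21.4% of all genes, 12.2% higher and 9.12% lower. At that time 288 of the 395 (72.9%) were called higher and 9 lower, and 200 of the 358 (55.9%) were called lower and 6 higher. The median organ difference at 90 min was 0.89 for the 395 and -0.58 for the 358, beside 0.01 for all genes tested. Opposite calls in both organs were already made at 90 min for 112 of the 395, against 1.51% of all genes, and for 53 of the 358, against 0.701%.

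Single genes differed in timing. AT1G06360 was called in the organ difference at 45 min, at 1.90 (adjusted p = 0.000864), as were SAUR6 at 0.91 (adjusted p = 0.000789), DWF4 at -0.92 (adjusted p = 0.000116) and GID1A at -1.26 (adjusted p = 0.000204). DWF4 had the other sign at 90 min, 1.79 (adjusted p = 2.15e-11). In cotyledon, PRE1 was higher in low R/FR at 90 min (log2 1.17, adjusted p = 2.35e-05) and lower at 180 min (log2 -1.78). SAUR29, SAUR27 and IAA14 were also called higher in cotyledon at 90 min, at log2 1.02, 0.96 and 0.48, and lower at 180 min, at -1.09, -0.92 and -0.66. They are 4 of the 9 genes among the 395 that were called higher in cotyledon at 90 min, while 155 were already called lower. In all, 4.41% of genes tested were called higher and 6.35% lower in cotyledon at 90 min, and 37.6% were called in hypocotyl. The organ difference at 90 min was not called for AT3G62550, SAUR72, EXPA1, EXPA10, PIP1A, CHIL, AKINBETA1, DIN1 and BCAT2, with values between -0.89 and 0.12.

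**Figure D3:**
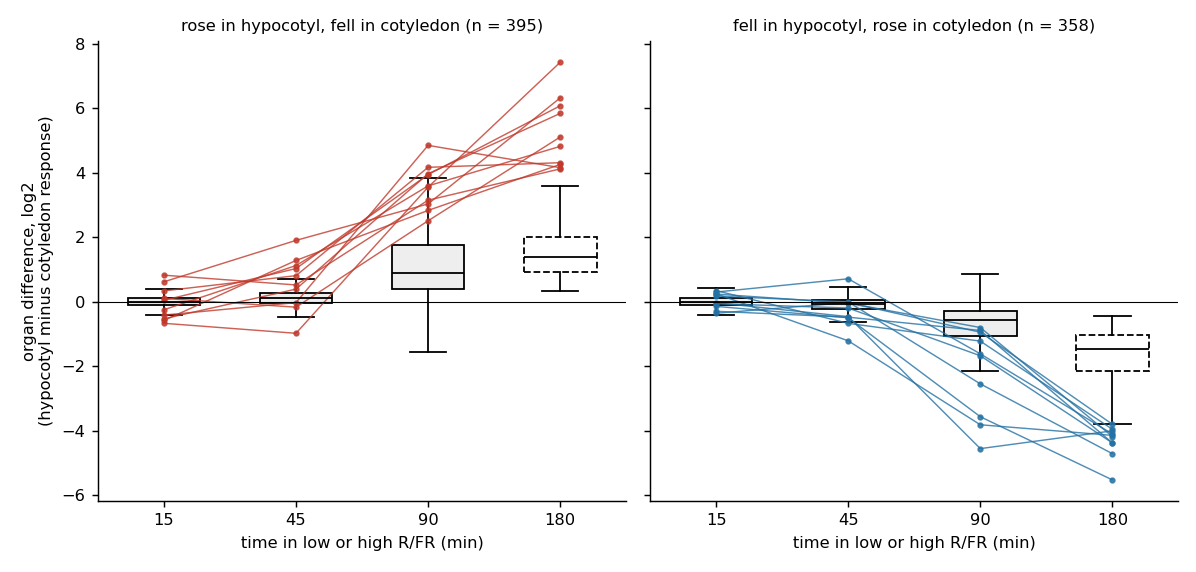
Organ difference (log2, hypocotyl minus cotyledon response) at 15, 45, 90 and 180 min for the 395 genes (left) and the 358 genes (right). Boxes give median and quartiles, whiskers reach 1.5 times the quartile range, lines are the 10 leading genes on each side, and the dashed box at 180 min is the value that chose the genes; medians at 90 min are 0.89 and -0.58.

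Before the light changed, many of these genes already differed between the organs. At 0 min, in libraries of their own, 267 of the 395 (67.6%) were lower in hypocotyl than in cotyledon and 64 (16.2%) were higher, against 33.6% lower and 36.2% higher over all genes tested, of which 69.8% were called. Of the 358 genes, 251 (70.1%) were higher in hypocotyl and 65 (18.2%) lower. The median log2 ratio of hypocotyl over cotyledon was -0.66 for the 395, 0.89 for the 358 and 0.03 for all genes. AT1G06360, ACS11 and PRE1 were among those lower in hypocotyl, at -7.71 (adjusted p = 4.25e-22), -6.14 (adjusted p = 1.42e-15) and -5.67 (adjusted p = 2.98e-12). UMAMIT12 and SAUR41 were higher there, at 5.05 (adjusted p = 5.71e-24) and 4.85 (adjusted p = 1.13e-13). Exceptions included EXPA11 and SAUR27, higher in hypocotyl at 1.42 and 1.43 though they rose there, and CHIL, lower at -2.20 though it fell there.

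**Figure D4:**
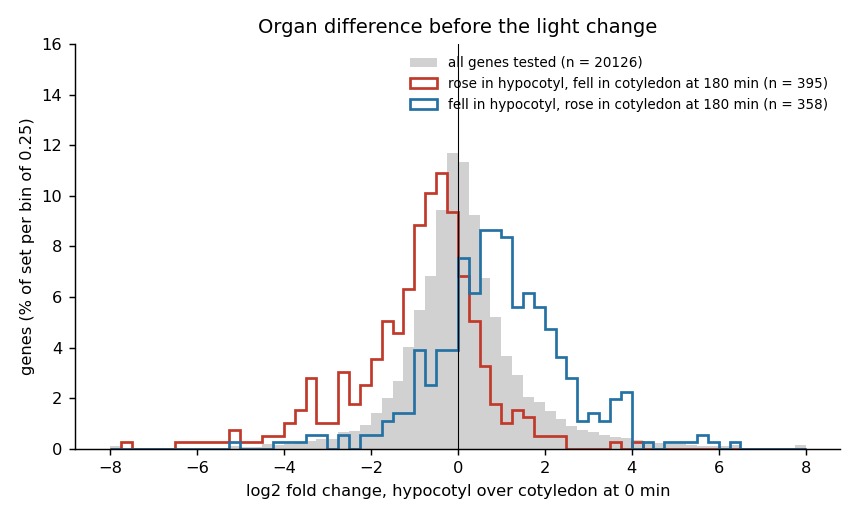
Distribution of the log2 fold change of hypocotyl over cotyledon at 0 min, as percent of each set per bin of 0.25, with values beyond 8 in either direction placed in the end bins. The red outline (395 genes, median -0.66) lies left and the blue outline (358 genes, median 0.89) lies right of all 20126 genes tested (grey).

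Most shade marker genes rose in both organs. All 17 marker genes tested rose in hypocotyl and 13 in cotyledon, and none fell. Over all genes tested, 31.2% rose in hypocotyl and 8.02% in cotyledon. The organ difference was called for 12 markers, with 7 higher and 5 lower in hypocotyl, against 46.5% of all genes. This list, like the others, was chosen with earlier results of these data known. XTH15, a wall enzyme, was at 1.23 and 0.951 CPM in cotyledons in high R/FR and at 228 and 353 CPM in low R/FR, against 5.72 and 5.20 CPM and 21.9 and 25.0 CPM in hypocotyls. Its organ difference, -5.89 ± 0.28 (adjusted p = 9.57e-15), was mostly a difference in the size of a rise. PIL1, a PIF-related protein that shade induces fast, differed by -4.13 ± 0.45 (adjusted p = 2.22e-08) and HFR1, which restrains PIFs, by -1.61 ± 0.16 (adjusted p = 3.73e-09). PAR2, an atypical helix-loop-helix protein, differed by 3.63 ± 0.32 (adjusted p = 7.98e-09), from 17.9 and 16.2 CPM to 168 and 199 CPM in hypocotyls and from 16.7 and 14.9 CPM to 13.5 and 13.8 CPM in cotyledons. For the homeobox gene ATHB2 the organ difference at 180 min was -0.36 ± 0.21 (adjusted p = 0.168), and it was called in 3 other fits with a hypocotyl value up to 0.58 below that of cotyledon.

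Large organ differences were also found outside the opposite sets. XTH31, another xyloglucan-modifying enzyme, fell in hypocotyls from 246 and 250 CPM to 5.77 and 4.41 CPM and stood in cotyledons at 59.6 and 64.7 CPM and then 85.8 and 71.1 CPM; its organ difference was -5.92 ± 0.23 (adjusted p = 8.19e-16). CKX5, a cytokinin oxidase, rose in cotyledons from 0.264 and 0.418 CPM to 45.7 and 39.3 CPM and in hypocotyls from 4.00 and 4.07 CPM to 9.09 and 8.91 CPM. SNRK2.5, a protein kinase of the SNF1-related family, and ORP4C, an oxysterol-binding-related protein, were also more strongly raised in cotyledon, at -5.38 ± 0.21 and -4.92 ± 0.49 (adjusted p = 1.39e-17 and 2.56e-09). On the other side, IAA6 rose in hypocotyls from 1.44 and 1.32 CPM to 68.5 and 83.9 CPM and LRX2, a leucine-rich repeat extensin, from 0.109 and 0.129 CPM to 30.0 and 28.7 CPM. AT2G34930, of a disease resistance family, differed by 5.10 ± 0.57 (adjusted p = 7.70e-08). GH3.1, which conjugates auxin to amino acids, had 1 count in the hypocotyl libraries in high R/FR together and 14.3 and 26.2 CPM in low R/FR, so no fold is given. The organ difference of GH3.1 was not called by edgeR's test in the fit of the 8 libraries of 180 min alone (adjusted p = 0.0995). TGG2, a myrosinase, was at 0, 0, 7.12 and 0 CPM in the 4 hypocotyl libraries. Without hypocotyl low R/FR replicate 1 the organ difference was 0.089 (adjusted p = 1.0), so its call rested on that library.

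Beside the counts for gene lists that follow, the organ difference was called higher for 23.7% and lower for 22.8% of all genes tested. Of 8 auxin synthesis genes tested, it was called higher for 4 and lower for 2. With RLE scaling, TMM within each organ, and limma-voom with or without the block, the higher count was 2. The 4 became 2 without cotyledon high R/FR replicate 2, cotyledon low R/FR replicate 1 or any 1 hypocotyl library, and the lower count became 1 without hypocotyl high R/FR replicate 3. YUC5 and YUC6 were at adjusted p of 0.0489 and 0.0486. TAA1, which makes the auxin precursor indole-3-pyruvate, differed by 1.80 ± 0.33 (adjusted p = 3.39e-05). It fell in cotyledons from 26.8 and 29 CPM to 5.54 and 4.73 CPM and in hypocotyls from 1.58 and 1.19 CPM to 0.816 and 0.954 CPM. YUC8, of the YUCCA family that completes auxin synthesis, was at 6.34 and 9.13 CPM and then 90.3 and 89.7 CPM in cotyledons, and at 0.0545 and 0.0645 CPM and then 1.44 and 1.04 CPM in hypocotyls. Its organ difference of -0.16 (adjusted p = 0.406) had the other sign in 4 other fits, up to 0.81 in DESeq2. No SE is given, because a prior count of 2 shrinks this log2 value where counts are few. YUC2 differed by -1.58 ± 0.42 (adjusted p = 0.00279), a call lost without hypocotyl high R/FR replicate 3 (-1.42, adjusted p = 0.0677). YUC9 reached -3.19 ± 1.46 (adjusted p = 0.0762) on 3 counts in the hypocotyl libraries in high R/FR, and was called lower in 4 other fits, with adjusted p between 0.0107 in limma-voom with the block and 0.047 in the fit of 8 libraries. Among 18 transport genes 6 were higher and 6 lower, an even split like that of all genes, with 66.7% called in all against 46.5%. The auxin carriers of the endoplasmic reticulum PILS5 and PILS3 rose in hypocotyl and fell in cotyledon, PILS5 from 18.5 and 15.6 CPM to 71.6 and 58.3 CPM in hypocotyls and from 4.18 and 4.15 CPM to 1.66 and 1.46 CPM in cotyledons. ABCB4 and LAX1, an efflux and an uptake carrier, differed by -1.53 ± 0.22 (adjusted p = 1.74e-06) and -0.98 ± 0.10 (adjusted p = 1.61e-09).

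Many genes of the SAUR family are induced by auxin. Of 63 SAUR genes tested the organ difference was called higher for 30 and lower for 10, against 23.7% and 22.8% of all genes, with a median of 1.01 beside 0.00 for all genes. In hypocotyl 40 rose and 9 fell, and in cotyledon 13 rose and 11 fell. Among them 8 rose in hypocotyl and fell in cotyledon (SAUR6, SAUR12, SAUR15, SAUR27, SAUR29, SAUR62, SAUR78 and SAUR79) and 2 did the reverse (SAUR41 and SAUR72). SAUR15 was at 8.10 and 9.85 CPM and then 4.79 and 4.16 CPM in cotyledons, and at 10.6 and 9.65 CPM and then 36.4 and 51.0 CPM in hypocotyls. SAUR genes lie in clusters of near-identical copies. Reads that aligned to more than 1 place were tallied outside the gene counts, so counts of such copies may be incomplete. Of 27 Aux/IAA genes, which encode repressors of auxin signalling, 10 were higher and 4 lower, with a median of 0.15. Without hypocotyl high R/FR replicate 2 the counts were 9 and 7, and without hypocotyl low R/FR replicate 3 they were 9 and 8, with a median of -0.01 in both. IAA19 differed by 3.39 ± 0.30 (adjusted p = 4.64e-09) and IAA29 by 0.45 ± 0.31 (adjusted p = 0.257). IAA14 and IAA18 rose in hypocotyl and fell in cotyledon, whereas IAA26 fell in hypocotyls from 27.3 and 26.5 CPM to 16.8 and 14.3 CPM and rose in cotyledons from 32.9 and 30.7 CPM to 75.7 and 71.6 CPM. Of 8 GH3 genes 3 were higher and 2 lower: GH3.3 differed by -3.65 ± 0.23 (adjusted p = 3.48e-12), GH3.9 by -1.38 ± 0.20 and GH3.5 by 1.27 ± 0.24 (adjusted p = 1.77e-06 and 0.00012).

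Of 14 brassinosteroid genes the organ difference was called higher for 8 and lower for 4, against 23.7% and 22.8% of all genes. Besides BR6OX1, the C-22 hydroxylase gene DWF4 fell in cotyledons from 33.4 and 33.2 CPM to 14.2 and 14.7 CPM and rose in hypocotyls from 27.6 and 27.5 CPM to 34.6 and 37.4 CPM. CPD, which acts in the same pathway, went the other way, from 288 and 290 CPM to 464 and 431 CPM in cotyledons and from 198 and 190 CPM to 142 and 145 CPM in hypocotyls. SOB7 and BEN1, which inactivate brassinosteroids, rose in hypocotyl by 1.07 and 0.46 and fell in cotyledon by 0.61 and 0.44 on the log2 scale, and UGT73C5, a glucosyltransferase that does so too, differed by -3.03 ± 0.21 (adjusted p = 1.42e-12). Of 23 gibberellin genes 8 were higher and 7 lower, a near-even split like that of all genes, with 65.2% called in all against 46.5%. The receptor gene GID1A fell in hypocotyls from 15.3 and 15.1 CPM to 5.74 and 6.56 CPM and rose in cotyledons from 9.25 and 10.3 CPM to 20.1 and 19.4 CPM, while RGA, encoding a DELLA repressor, rose in hypocotyl and fell in cotyledon. The other DELLA genes GAI and RGL1 differed by 1.57 ± 0.16 and 3.07 ± 0.32 (adjusted p = 3.04e-09 and 1.47e-08), and the synthesis gene KAO2 by -1.28 ± 0.10 (adjusted p = 2.12e-11). Of 12 ethylene synthesis genes 6 were higher and 1 lower, with a median of 1.13; the lower count was 2 without hypocotyl high R/FR replicate 2 or either hypocotyl library in low R/FR. ACS4 was raised in both organs and differed by 3.74 ± 0.38 (adjusted p = 1.22e-08), and ACS5 differed by 5.77 ± 0.82 (adjusted p = 9.61e-07) on few counts. Of 17 cytokinin genes 3 were higher and 4 lower. The counts were 0 and 6 without hypocotyl high R/FR replicate 3 or hypocotyl low R/FR replicate 3, and the higher count was 1 without replicate 1 of either cotyledon group or hypocotyl high R/FR replicate 2. ARR8 and CKX6 differed by -0.84 ± 0.12 and -1.39 ± 0.30 (adjusted p = 1.32e-06 and 0.000535), and ARR6 by -1.32 ± 0.36 (adjusted p = 0.00328), which became -0.77 (adjusted p = 0.177) without cotyledon low R/FR replicate 2. Of 15 growth-related helix-loop-helix genes 7 were higher and 3 lower, or 7 and 5 without hypocotyl high R/FR replicate 2 or hypocotyl low R/FR replicate 3. Among them were PRE6 at 4.26 ± 0.33 (adjusted p = 1.09e-09), IBL1 at 2.48 ± 0.27 (adjusted p = 6.65e-08), and AIF1, which opposes growth and rose in hypocotyl while falling in cotyledon.

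Of 20 expansins, which loosen walls, the organ difference was called higher for 11 and lower for 3, against 23.7% and 22.8% of all genes, and the median of 1.52 was the highest of the 23 lists. In hypocotyl 12 rose and 4 fell, in cotyledon 2 rose and 8 fell, and EXPA1, EXPA8, EXPA10, EXPA11, EXLA1 and EXLA3 moved in opposite directions. EXLA1 went from 15.5 and 14.5 CPM to 8.41 and 10.0 CPM in cotyledons and from 12.9 and 12.5 CPM to 109 and 106 CPM in hypocotyls. EXLA3, its neighbour on the chromosome and a close relative, had 0 counts in cotyledons in low R/FR and 15 in high R/FR. EXPA11 went from 41 and 40.4 CPM to 26.7 and 23.5 CPM in cotyledons and from 179 and 176 CPM to 699 and 731 CPM in hypocotyls. EXPA5 fell in both organs and more in cotyledon (2.47 ± 0.18, adjusted p = 4.56e-12), and EXPB3 fell in hypocotyl, with a difference of -3.18 ± 0.16 (adjusted p = 3.98e-15). Of 24 XTH genes, which cut and rejoin xyloglucan, 11 were higher and 5 lower. XTH8 differed by 3.00 ± 0.24 (adjusted p = 6.44e-10), XTH32 by -3.12 ± 0.14 (adjusted p = 1.62e-16), and XTH4 rose in hypocotyl by 0.86 while in cotyledon it decreased by 0.31 on the log2 scale. Of 12 cellulose synthesis genes 8 were higher and 0 lower in edgeR's test (0 also at an unadjusted p under 0.05) and in DESeq2, and 1 was lower without cotyledon low R/FR replicate 1 or hypocotyl low R/FR replicate 3. The primary-wall subunits CESA1, CESA3 and CESA6 and the anchor COB differed by 1.25 ± 0.14, 1.26 ± 0.13, 1.18 ± 0.12 and 1.06 ± 0.12 (adjusted p between 2.14e-09 and 1.52e-08), and CESA5 moved in opposite directions. Of 17 aquaporins 9 were higher and 2 lower with a median of 0.38, or 6 higher with a median of 0.13 without hypocotyl high R/FR replicate 2. PIP2;7, of the plasma membrane, had means of 1002 ± 44.8 CPM and 670.5 ± 88.9 CPM in cotyledons and 425 ± 26.8 CPM and 1288 ± 51.0 CPM in hypocotyls (mean ± SD, n = 2). PIP1;4 and PIP1;5 moved likewise, PIP1A in reverse, and the vacuolar TIP2;1 differed by 1.80 ± 0.15 (adjusted p = 4.05e-11).

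**Figure D5:**
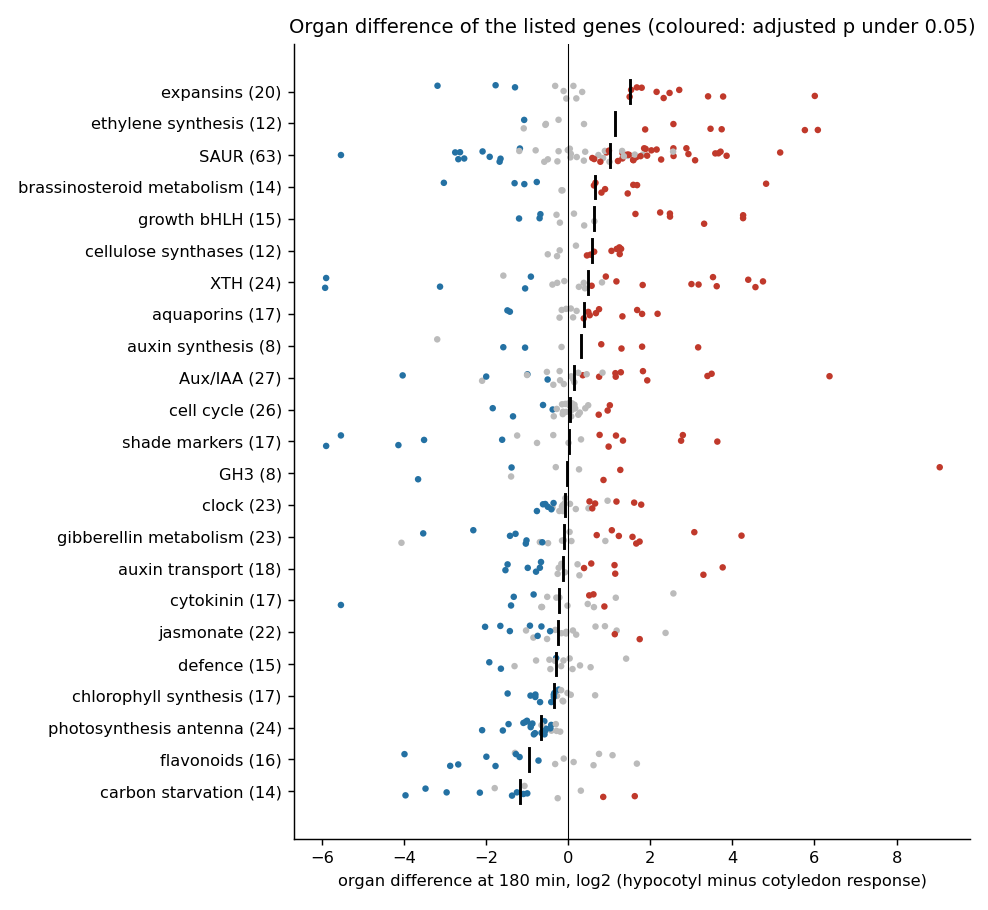
Organ difference at 180 min (log2, hypocotyl minus cotyledon response) of each gene tested in 23 lists, sorted by list median (black bar), with the number of genes in parentheses. Red and blue points were called higher and lower in hypocotyl, grey points were not called; expansins have the highest median (1.52) and the carbon starvation list the lowest (-1.17).

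In the 3 lists of photosynthesis and pigment genes the organ difference was called lower and not higher. Of 24 antenna and related genes the organ difference was called lower for 19 and higher for 0 in edgeR's test, against 22.8% and 23.7% of all genes. All 24 fell in hypocotyl, where 32.6% of all genes fell, and 2 fell in cotyledon, where 11.5% did. LHCA6 was at 62.0 and 62.5 CPM and then 10.9 and 12.2 CPM in hypocotyls, and at 279 and 273 CPM and then 213 and 227 CPM in cotyledons. The difference was -1.04 ± 0.12 for LHCB4.2, -0.91 ± 0.11 for LHCA4 and -1.09 ± 0.13 for CAB2 (adjusted p = 1.35e-08, 1.19e-07 and 7.23e-08). CAB2 has near-identical neighbours, so reads that fit more than 1 of them may be missing from its counts. This list holds 3 of the 4 mesophyll markers given above, whose own differences were all called lower. Of 17 chlorophyll synthesis genes 10 were lower and 0 higher, among them PORB at -1.47 ± 0.21, PORC at -0.92 ± 0.12, CHLM at -0.80 ± 0.10 and CRD1 at -0.68 ± 0.10 (adjusted p between 6.63e-08 and 4.09e-06). Of these 17 genes 15 fell in hypocotyl, and 8 fell in cotyledon, where 11.5% of all genes fell. Of 16 flavonoid genes 8 were lower and 0 higher. In hypocotyl 5 of them fell and 1 rose (median -0.04), and in cotyledon 7 rose and 0 fell (median 0.37). CHI and CHIL, of the chalcone isomerase family, fell in hypocotyl by 0.69 and 0.38 and rose in cotyledon by 0.50 and 0.89 on the log2 scale. The UDP-glycosyltransferase gene UGT78D1 differed by -2.87 ± 0.17 (adjusted p = 1.54e-13). The anthocyanin regulator PAP1 was in the opposite set on 3 and 2 counts in its lowest groups, so no fold is given. In all 16 other fits, DESeq2 and limma-voom included, 0 genes of these 3 lists were called higher; by edgeR's test 0 were higher at an unadjusted p under 0.05.

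In the main fit the carbon starvation list had the lowest median, -1.17. With the 8 libraries of 180 min alone the flavonoid list was lowest, at -1.37 against -1.27 for carbon starvation. In the main fit 8 of 14 carbon starvation genes were lower and 2 higher, against 22.8% and 23.7% of all genes. The higher count was 0 without hypocotyl high R/FR replicate 2 or hypocotyl low R/FR replicate 1, and 1 without cotyledon high R/FR replicate 2, cotyledon low R/FR replicate 1 or replicate 3 of either hypocotyl group. EXL4, BCAT2, DIN1, TPS10 and AKINBETA1 fell in hypocotyl and rose in cotyledon. DIN1, a dark-inducible gene, rose in cotyledons from 63.0 and 67.0 CPM to 160 and 157 CPM and fell in hypocotyls from 14.4 and 14.8 CPM to 4.95 and 4.08 CPM. TPS10, of the trehalose phosphate synthase family, rose from 23.5 and 24.5 CPM to 39.8 and 43.6 CPM and fell from 68.4 and 65.9 CPM to 25.7 and 26.8 CPM. BCAT2, which acts in branched-chain amino acid breakdown, had 2 counts in cotyledons in high R/FR, and TPS8 differed by -1.37 ± 0.16 (adjusted p = 5.04e-08).

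Of 23 clock genes 6 were higher and 6 lower, a share near the 46.5% called over all genes. CHE, which represses the clock gene CCA1, rose in hypocotyls from 42.4 and 40.8 CPM to 87.4 and 93.2 CPM and fell in cotyledons from 104 and 94.3 CPM to 61.3 and 63.6 CPM, and LNK2 moved the same way by 0.18 and -0.34. LUX, LNK4 and RVE1 differed by 1.61 ± 0.21, 0.59 ± 0.10 and -0.76 ± 0.13 (adjusted p = 2.21e-07, 8.44e-06 and 2.01e-05). Of 26 cell cycle genes 3 were higher and 4 lower, 26.9% in all against 46.5% of all genes, and without cotyledon low R/FR replicate 1 the counts were 2 and 2, with the inhibitor genes KRP1 and KRP2 at -1.84 ± 0.30 and -1.34 ± 0.22 (adjusted p = 1.84e-05 and 1.62e-05). CYCD1;1, a cyclin, and SMR1, an inhibitor, differed by 0.74 ± 0.16 and 1.02 ± 0.22 (adjusted p = 0.000229 and 0.000402). Of 15 defence genes 0 were higher in edgeR's test (0 at an unadjusted p under 0.05, and 1 in limma-voom with a block and in the fit of 8 libraries) and 3 were lower, ICS1 at -1.64 ± 0.16 (adjusted p = 1.40e-09), WRKY18 at -1.92 ± 0.54 (adjusted p = 0.00616) and NPR1 at -0.29 ± 0.12 (adjusted p = 0.0436). The calls of WRKY18 and NPR1 were lost without cotyledon low R/FR replicate 2 (adjusted p = 0.0517 and 0.140), and that of NPR1 also without either cotyledon library in high R/FR (adjusted p = 0.0718 and 0.106) and with the replicate number as a block term (-0.29, adjusted p = 0.0529). Without cotyledon low R/FR replicate 2 the list had 1 lower call. Of 22 jasmonate genes 2 were higher and 7 lower, and 1 was higher without cotyledon high R/FR replicate 1 or replicate 3 of either hypocotyl group. JAZ3, a repressor of jasmonate signalling, rose in hypocotyl and fell in cotyledon, while its relative JAZ9 differed by -2.02 ± 0.19 (adjusted p = 6.40e-10). The hormone-conjugating JAR1 and the synthesis gene AOC4 differed by -0.74 ± 0.10 and -1.42 ± 0.20 (adjusted p = 5.07e-07 and 1.79e-06).

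The authors' deposited tables of the 180 min responses, computed separately for each organ, listed 20957 genes in both. By adjusted p under 0.05 in both tables, 258 genes rose in hypocotyl and fell in cotyledon and 229 did the reverse in the authors' deposited tables. Of the 395 and 358 genes given here, 252 and 224 were among them. All 753 had the same pair of signs in the authors' deposited tables. Those tables are of the same series, whose 180 min values also chose the 753 genes, so the match is not an independent check.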

How the data were processed

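RNA-seq of 36 samples was used, 2 libraries in each of 18 groups of organ, light and time. Per the submitters' processing notes, the tools named are limma 3.18.2, edgeR 3.4.0, HTSeq (0.5.4p3), TopHat2 2.0.9 beside Bowtie, and cutadapt 1.2.1; the build is TAIR10. The strand setting of the counting is not given in the sources used here. The deposited table holds whole-number counts per gene, not normalised. The authors' deposited comparison tables give log2 fold changes and adjusted p-values.

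Genes were kept by edgeR's filterByExpr (minimum count 10, total 15) and scaled by TMM. A quasi-likelihood model (edgeR 4.0.16, R 4.3.3, robust, 1 mean per group, all 36 libraries) gave each contrast, with Benjamini-Hochberg adjustment over 20126 genes. Each SE is the log2 value divided by the square root of F. A prior count of 2 shrinks the log2 value and not F, so the SE is not reliable for genes with few counts. The fit was tested on simulated data, with changes put into genes that had more counts. It recovered 43.1% of organ differences of log2 0.585, 76.8% of those of 1 and 98.6% of those of 2, with 7 false calls. Times share the estimate of spread. Alternatives were RLE scaling, TMM within organ, no filter, DESeq2 1.42.0, limma-voom (limma 3.58.1), the 8 libraries alone, the replicate number as a block, each library left out, and a 1.5-fold minimum.

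The gene sets, the 23 lists and the tests were chosen with earlier results of these data known. Of 565 list entries, 559 matched a gene. Named are the 10 leading genes of each opposite set (average log2 CPM of at least 1, no overlap between lights in either organ), the 5 largest other differences each way, up to 4 genes of each list by p, 8 shade genes and every list member in an opposite set. The values of 1 gene that this rule names are not reported here. Symbols and promoter coordinates are from RefSeq, whose genes overlap all 20481 of the deposited tables' genes compared, on the same strand.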

Additional observations from a re-analysis of the deposited data

Results flagged for a closer look

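The responses of the organs differed by a test of the difference for 4768 genes (higher in hypocotyl) and 4583 genes (lower), and 395 and 358 genes moved in opposite directions. The 10 leading genes that rose in hypocotyl and fell in cotyledon had organ differences (log2) of 7.43 for MSRB9, 6.33 for AT1G06360, 6.08 for ACS11, 5.84 for PME2 and 5.11 for AT5G45670. They were followed by BR6OX1 at 4.82, AT3G07000 at 4.32, PRE1 at 4.26, AT3G06990 at 4.16 and AT5G61660 at 4.12. In the other direction the values were -5.53 for SAUR41, -4.72 for AT2G12462, -4.39 for AT3G62550, -4.38 for AT4G13540 and -4.19 for UMAMIT12. AT4G16750 at -4.15, AT5G41460 at -4.11, ABCG19 at -4.01, EXL4 at -3.96 and AT1G52000 at -3.81 completed them. These 20 genes were chosen so that the 2 libraries of each light stood apart in both organs, so this is a property of the choice. With 2 libraries per group, no sample could be tested as lying far from its group.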

How the results depend on the processing

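Of 134 named genes, 125 kept direction and call in all 16 alternatives with a fit. The others were ARR6, ATHB2, GH3.1, NPR1, TGG2, WRKY18, YUC2, YUC9 and YUC8. The organ difference of YUC8, -0.16, became 0.68 in limma-voom with the replicate block by shared number, 0.81 in DESeq2, 0.53 in limma-voom, and between -0.53 and 0.073 with 1 library left out (0.073 without cotyledon high R/FR replicate 1), on 4 counts in hypocotyls in high R/FR; the cause was not tested. Fitting the 8 libraries alone gave 567 in place of 358 genes that fell in hypocotyl and rose in cotyledon, and moved the median organ difference by -0.10. Asking for 1.5-fold in each organ left 140 and 127 by construction. Leaving out 1 library gave 3430 to 4435 and 4127 to 5285 genes for the organ difference, 244 to 282 and 236 to 459 for the opposite sets, 4922 to 6282 and 6531 to 6734 for hypocotyl, and 1035 to 1909 and 1499 to 1923 for cotyledon. Leaving out a hypocotyl library moved the median organ difference by -0.11 to -0.14, and the share of opposite genes that rose in hypocotyl from 52.5% to between 36.4% and 37.6%; it was 40.3% with TMM within organ and 38.3% without the filter. Replicate numbers are not said to mark a shared plate, and the main fit did not take same-numbered libraries as pairs. At 180 min their deviations correlated between 0 and 0.118. For the organs sharing light and number the values were 0.117 and 0.118, and between 0.054 and 0.14 at other times. The consensus correlation of libraries sharing time, light and number was 0.177 in limma-voom. With the replicate block as a term 4867 and 4642 genes were called, with opposite sets of 421 and 375, and limma-voom with the block gave 4931 and 4792, with 387 and 366. Depth limits the genes with few counts, such as YUC9 with 3 counts in hypocotyls in high R/FR.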
